A study of Mus musculus with 8 samples.

Results

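The core cardiac transcription factors are the DNA-binding proteins that switch on the myocardial gene program in the embryonic heart. The 10 genes Nkx2-5, Gata4, Gata5, Gata6, Tbx5, Tbx20, Mef2a, Mef2c, Hand1 and Hand2 were taken by their symbol from arrays of single mouse myocardial cells, out of 24336 named genes, and were read by 14 of 55681 probes. The arrays compared myocardial cells, at embryonic day 8.5 (9 somites), from embryos with and without a mesodermal deletion of Sox17. Sox17 is an HMG-box factor of endoderm and endothelial precursors. Heart tubes were dissociated, cells were picked with a capillary, and the amplified cDNA of each cell was put on 1 array, with 4 WT and 4 KO cells. WT cells carried the genotype Mesp1+/+ with Sox17flox/flox, and KO cells Mesp1Cre/+ with Sox17flox/flox, so the floxed Sox17 allele was present in both genotypes. The Cre of the KO cells is a knock-in at Mesp1 and acts in early mesoderm, from which myocardium and endocardium both arise, so recombination was not limited to the myocardium and the KO cells carried that insertion in Mesp1, which the WT cells did not.

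In the early heart these factors work as a network. Nkx2-5, a homeodomain protein, binds DNA together with the zinc finger proteins of the GATA family and the T-box protein Tbx5, and they activate genes of the sarcomere and of secreted peptides such as Nppa. Tbx20 is a further T-box factor of chamber myocardium, the MADS-box proteins Mef2a and Mef2c drive muscle genes, and the basic helix-loop-helix proteins Hand1 and Hand2 are needed for ventricular growth.

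The labels named no embryo or litter for any cell, so each genotype was 1 sample of cells, no test was made and an SD describes the spread between 4 cells only. The arrays lay on 2 slides, the WT cells on the first and the KO cells on the second, and an effect of the slide cannot be told apart from one of genotype. Per cell, 19.6%, 21.4%, 26% and 24.1% of probes were well above background in WT cells 1 to 4. The shares in KO cells 1 to 4 were 24.3%, 17.2%, 17.2% and 20.1%. The 2 probes for Sox17, the targeted gene, were well above background in 0 of 8 cells, so they did not check the genotype. The study assigned a type to each single-cell cDNA by PCR for marker genes, so marker counts here are no independent check of identity. Of 10 myocardial markers, 9 were well above background in all 8 cells. Of 13 endothelial and endocardial markers, 2 to 4 were detected per WT cell and 1 to 3 per KO cell. Of the 13, 7 were detected in no cell, among them Cdh5, Tek and Emcn. By brightest probe, Pecam1 was detected in 4 WT and 2 KO cells and Dll4 in 2 KO cells. Tie1, Etv2 and Sox7 were detected in 1 WT cell each. All of these signals were under 50 units. Kdr was the only one of these markers whose brightest probe reached 50 units in any cell, with 442.3 to 692.3 units in all 8. The other Kdr probe differed from it, with 3243 units in KO cell 2 and the floor in the other 7 cells. Of 7 erythroid markers 6 were detected in no cell, as were 5 of 6 endoderm markers. Of 5 proepicardial and mesenchymal markers only Wt1 reached 50 units, with 475.3 and 472.1 units in WT cells 2 and 3, and its part in the results was not tested.

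What an array can say about a gene depends on the probe, so stretches of the probes on which the results turned are shown first. The probes are 60 bases long, and the last 30 bases are given, 5′ to 3′, for the brightest probes that were detected in any cell and shared no run of 16 bases, on either strand, with a probe of another gene.
Nkx2-5: aaatgagaaccctcttcccattaaagtgag
Gata4: ttttcgctgtttctccctcaaggccgcctt
Tbx5: acgaacgtcgcaggggctacctgctagttt
Tbx20: agcatgaaacaggtgttaaaaacattttta
Hand1: ttgtaacgtatttaaactacctatcatgcc
Hand2: atttaattaatattgaaggtgtaaacattg
In the mm9 build that the array files use, the probes lay at chr17:26975621-26975680 (minus strand, Nkx2-5), chr14:63817858-63817917 (minus strand, Gata4), chr5:120334087-120334146 (plus strand, Tbx5), chr9:24544715-24544774 (minus strand, Tbx20), chr11:57642342-57642401 (minus strand, Hand1) and chr8:59803220-59803279 (plus strand, Hand2). The array design assigns each of them to a transcript of the gene, and exon and UTR annotation was not used here. Of the 14 probes, 11 shared no such run with another gene, and the Gata6 probe shared one with 1 probe, for Ets2. The other 2 shared runs with many genes: the only Gata5 probe with 11 probes and the brightest of the 3 Mef2a probes with 13.

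Both of these probes hold repeat-like sequence. For each, 30 bases are set beside those of the named probe that shared a run and had the most similar signal over the cells. Capitals mark the longest run of bases held by both, 19 in each pair.
Gata5: tagctCTGGCTGTCCTGGAACTCAttatgt
Timmdc1: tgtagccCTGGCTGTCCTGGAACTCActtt
Mef2a: ggtgtGAGTGTGTGTGTATGTGTGggtgtg
Fryl: agttgGAGTGTGTGTGTATGTGTGtgacag
The Gata5 probe lay at chr2:180059867-180059926 and the Mef2a probe at chr7:74379575-74379634, both on the minus strand. The Fryl probe lay at chr5:73412603-73412662, also on the minus strand. The run CTGGCTGTCCTGGAAC of the Gata5 probe was found on either strand in 35 of 32851 RefSeq promoters of the GRCm38.p6 build (0.107%), and the run TGTGTGTGTATGTGTG of the Mef2a probe in 15 (0.0457%).

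The probes that shared these runs were seen in nearly every cell. Of the 11 probes sharing with Gata5, 9 (81.8%) were well above background in all 8 cells, and of the 13 sharing with Mef2a, 10 (76.9%). Over all probes, 5304 of 55681 (9.53%) were detected in all 8 cells and 31255 (56.1%) in none. The strand of the shared run went with the direction of the similarity, a feature noticed after the values were seen. Among 9 probes with the Mef2a run on the same strand, Pearson's r of the log2 signal with the Mef2a probe over 8 cells was above 0 in all 9, from 0.49 to 0.95 with a median of 0.90. The 2 measured probes with the run on the opposite strand, for Dusp7 and Pitpnc1, had r of -0.73 and -0.70. For Gata5, the 3 same-strand probes had r of 0.61 to 0.82, and the 7 opposite-strand probes had r of -0.67 to -0.26. All of these points come from the same 8 arrays and share their scaling, so the values are descriptions. The median r of all other measured probes was -0.03 with the Mef2a probe and 0.06 with the Gata5 probe. How much of the signal of these 2 probes came from Gata5 and Mef2a transcripts was not tested, and both genes are kept apart below.

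**Figure D1:**
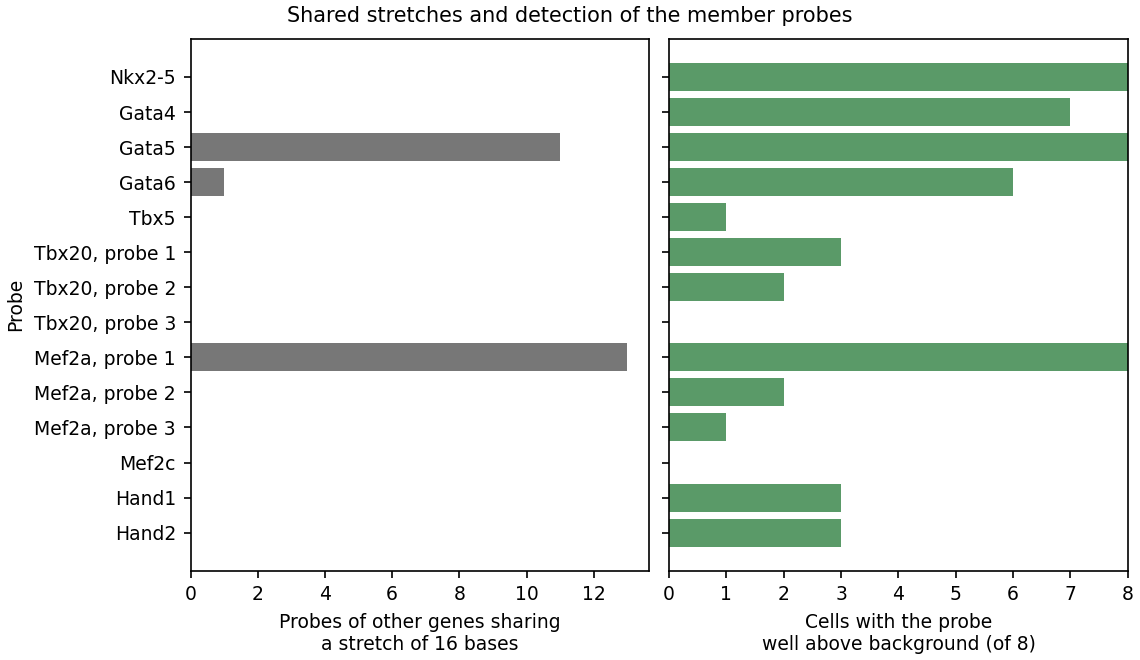
For each of the 14 probes, the left bars count the probes of other genes that share a run of 16 bases with it on either strand, and the right bars count the cells, of 8, in which the probe was well above background. The Gata5 probe and Mef2a probe 1 have 11 and 13 sharing probes and are detected in 8 cells, and the Nkx2-5 probe is detected in 8 cells with 0 sharing probes.

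Signals are given below in scaled units: each array was set to the same median over the 5304 probes well above background in all cells, and values under 50 were set to 50, called the floor. The unit is arbitrary and holds within a probe, so the level of one gene is not set against that of another.

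Nkx2-5 was the one factor seen in every cell by a probe free of shared runs. Its signals were 43424, 3098, 12139 and 4976 units in WT cells 1 to 4 and 13499, 16747.5, 29072 and 16703 units in KO cells 1 to 4. WT cell 1 held the highest value and WT cell 2 the lowest, so the KO cells lay within the WT range. The WT cells spread over a 14-fold range and the KO cells over a 2.15-fold range. On the log2 scale the means were 13.21 ± 1.67 (SD, n = 4) in WT and 14.15 ± 0.47 (SD, n = 4) in KO, a difference of 0.94, which is smaller than the WT SD.

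Gata4, a zinc finger activator of myocardial genes, was well above background in all 4 WT cells at 1268, 1314, 12107 and 2561 units. In KO cells 1 to 4 it measured 198.4, 50, 50 and 1685 units. KO cells 1, 2 and 3 lay below every WT cell, whereas KO cell 4 lay between WT cells 2 and 4, so the genotypes overlapped. KO cell 2 was not well above background, and KO cell 3 was, although its signal was under the floor. KO cells 2 and 3 also had the smallest share of probes well above background, 17.2% each, and WT cell 3 the largest, 26%. KO cell 1, also low in Gata4, had 24.3%, and the part of this share in the Gata4 values was not tested. The log2 means were 11.39 ± 1.52 (SD, n = 4) in WT and 7.41 ± 2.40 (SD, n = 4) in KO, a difference of -3.98 or 15.8-fold. With KO cells 2 and 3 at the floor this size rested on the floor, and it was -5.35 with no floor. Leaving out KO cell 4 gave -5.08, and leaving out WT cell 3 gave -3.25, the ends of the range over single cells left out, and leaving out KO cell 2 or 3 gave -3.39. The study picked Gata4 out from these same arrays, so its direction here is not independent evidence.

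Gata6, which acts in heart and endoderm development, was detected in 3 cells of each genotype. Its signals were 5237, 620.6, 50 and 547.1 units in WT cells 1 to 4 and 50, 509.8, 107.5 and 6546 units in KO cells 1 to 4. Each genotype had 1 cell at the floor and 1 cell far above its others, WT cell 1 and KO cell 4. The difference of the log2 means was -0.58 with SDs of 2.74 and 3.10, and its sign turned without WT cell 1, to 0.51. The cells low in Gata4 differed in Gata6. KO cells 2 and 3, at the Gata4 floor, had 509.8 and 107.5 units of Gata6, and KO cell 1, also low in Gata4, was at the Gata6 floor. WT cell 3, at the Gata6 floor, had the highest Gata4 signal. All 8 cells had Gata4 or Gata6 above the floor, and 4 had both, a count made after the values were seen. Each gene was above the floor in 6 of 8 cells, so this count says little about a relation between them.

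The Gata5 probe gave 4087, 4510, 569.0 and 1915 units in WT cells 1 to 4 and 976.6, 1848, 4829 and 4327 units in KO cells 1 to 4. Both genotypes covered much the same range, and the log2 difference of 0.23 was smaller than the SDs of 1.38 and 1.09. Without WT cell 3 it was -0.40. WT cell 3, the lowest of all for Gata5, was the highest for Gata4.

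**Figure D2:**
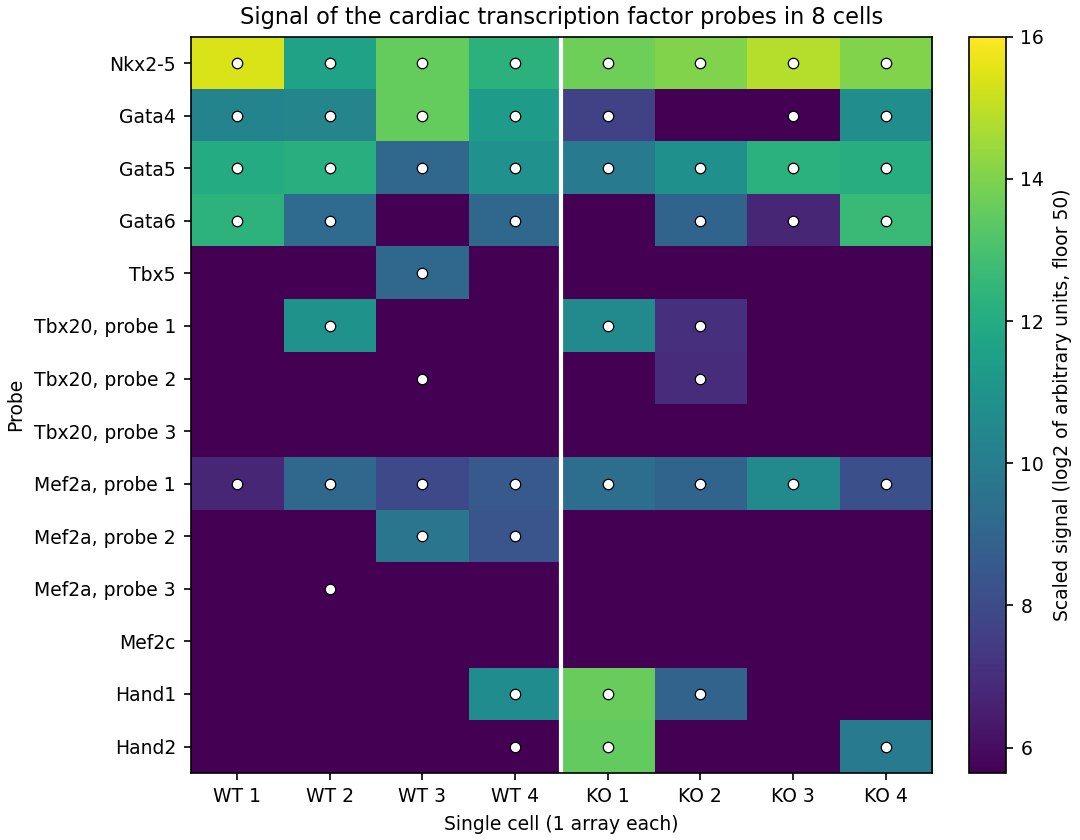
Colour gives the scaled signal (log2, floor 50) of each of the 14 probes, in rows, in the 4 WT and 4 KO cells, in columns, and white dots mark spots well above background. Nkx2-5, Gata5 and Mef2a probe 1 carry a dot in all 8 cells, Gata4 in 7 and Gata6 in 6, and the other probes in 3 or fewer.

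The T-box factors were seen in few cells. Tbx5, which marks the first heart field and the left ventricle and atria, was well above background in WT cell 3 alone, at 564.5 units, with the other 7 cells at the floor. With undetected cells of both genotypes at the floor this made Tbx5 1.83-fold higher in WT, which is not a lower bound. The difference rested on WT cell 3 and was 0.00 without it. Tbx20 had 3 probes, and its brightest measured 1941 units in WT cell 2, 1527 units in KO cell 1 and 136.6 units in KO cell 2, with the remaining 5 cells at the floor. The log2 difference was 0.28, which became -0.84 when KO cell 1 was left out and 1.60 when WT cell 2 was. Of the other Tbx20 probes, one was above the floor in KO cell 2 alone, at 125.7 units, and the other was detected in no cell. Tbx5 and Tbx20 were above the floor together in 0 of 8 cells, and 4 cells had either of them, a count made after the values were seen. With Tbx5 above the floor in 1 cell and Tbx20 in 3, it says little about a relation between them.

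For the MADS-box factors the probes differed. The brightest Mef2a probe, the one with shared runs, gave 107.1, 549.7, 241.8 and 375.6 units in WT cells 1 to 4 and 676.5, 503.7, 1554 and 293.0 units in KO cells 1 to 4. The genotypes overlapped, and the KO mean was 1.21 higher on the log2 scale, with an SD of 1.01 in each. All 9 of the same-strand probes of other genes described above were also higher in KO, with a median difference of 0.53. Their r with this probe was above 0 on the same arrays, so their direction follows in part from that similarity and is no separate evidence. Of 5385 named genes detected in at least 4 of 8 cells, 2341 were higher in KO and 2522 lower. The 9 same-strand probes were detected in 7 or 8 cells, and probes detected in all 8 cells leaned higher in KO, with a median difference of 0.15. A second Mef2a probe, with no shared run, pointed the other way. It was above the floor in WT cells 3 and 4, at 844.4 and 330.9 units, and in no KO cell. With all other cells at the floor it was 3.25-fold higher in WT, or 1.88-fold when WT cell 3 was left out. It is read at chr7:74376573-74376632 on the minus strand, and its last bases are
Mef2a, second probe: gtttcaccatttcctttcaactgtaaagac
The third Mef2a probe was detected in WT cell 2 with a signal under the floor. The direction of Mef2a between the genotypes therefore depended on the probe. Mef2c, which drives the anterior heart field and its muscle genes, was well above background in 0 of 8 cells (2 by the looser flag for positive and significant spots) by its only probe, at chr13:83772788-83772847 on the plus strand, so these arrays gave no level for it.

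Hand1 and Hand2 were seen in more KO cells than WT cells, by 1 cell and 2 cells above the floor. Hand1, which is enriched in the left ventricle, measured 1624 units in WT cell 4, 12365 units in KO cell 1 and 488.4 units in KO cell 2, and the other 5 cells were at the floor. Its log2 difference was 1.55 with SDs of 2.51 and 3.76, and it turned to -0.16 without KO cell 1. Hand2, which is needed for the right ventricle and acts in the endocardium too, measured 11643 units in KO cell 1 and 981.3 units in KO cell 4, with the other 6 cells at the floor. WT cell 4 was among those 6, well above background but under the floor. With every WT cell at the floor, the floor set the size of the Hand2 difference, 3.04 with it and 4.86 with no floor. The SD in KO was 3.80, and the difference was 1.43 when KO cell 1 was left out and 4.05 when KO cell 2 or 3 was. KO cell 1 held the highest Hand1 and the highest Hand2 signal, and it was the one cell with both above the floor.

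**Figure D3:**
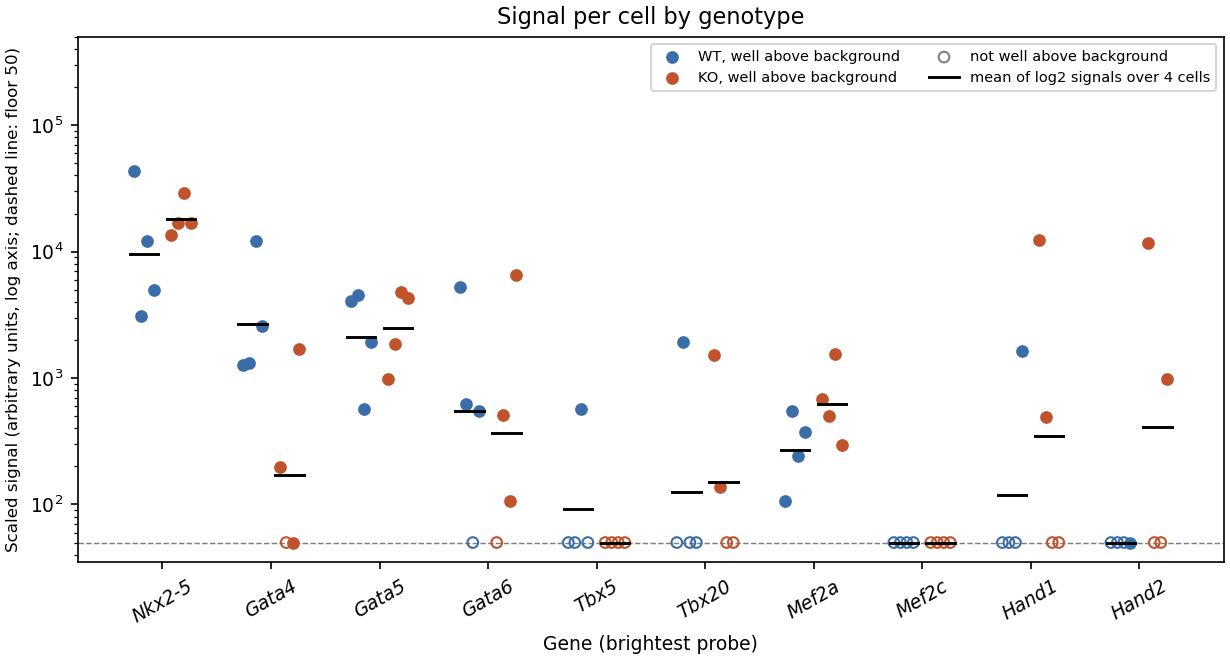
Each point is the scaled signal of a gene's brightest probe in 1 cell (log axis, arbitrary units), filled where it was well above background, and the black bars are the means of the log2 signals over 4 cells. Gata4 lies between 1268 and 12107 units in WT and between 50 and 1685 units in KO, the Nkx2-5 points of the KO cells lie inside the WT range, and levels of different genes are not comparable on this axis.

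A gene was called present where it was well above background in all 4 cells of at least 1 genotype, and called higher or lower at a difference of 5-fold, the size rule of the study. By brightest probe, 4 members were present: Nkx2-5, Gata4, Gata5 and Mef2a. Of these, 1 was lower in KO (Gata4) and 0 were higher. Of all 3384 present genes, 364 were lower (10.8%) and 91 were higher (2.69%). Counted by probe, 6.88% of 7474 present probes were lower and 1.75% were higher. Of the genes, 199 (5.88%) had cells of the genotypes that did not overlap. With 4 present members, a count of 1 lower is not far from this background, and 0 members had genotypes that did not overlap. Hand2 passed 5-fold, against WT cells all at the floor, but was not present. Over the 5 members detected in at least 4 of 8 cells, 2 were lower and 3 higher in KO, with a median difference of 0.23, and over the 5385 named genes so detected the median was 0.00. When the Gata5 probe and the brightest Mef2a probe, which shared runs with more than 10 probes each, were left out, a choice made after the data were seen, 3 members (Nkx2-5, Gata4 and Gata6) remained and the median, the Gata6 value, was -0.58. The median SD of present genes was 0.97 in WT and 0.92 in KO, and Gata4 had a larger SD in both genotypes.

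**Figure D4:**
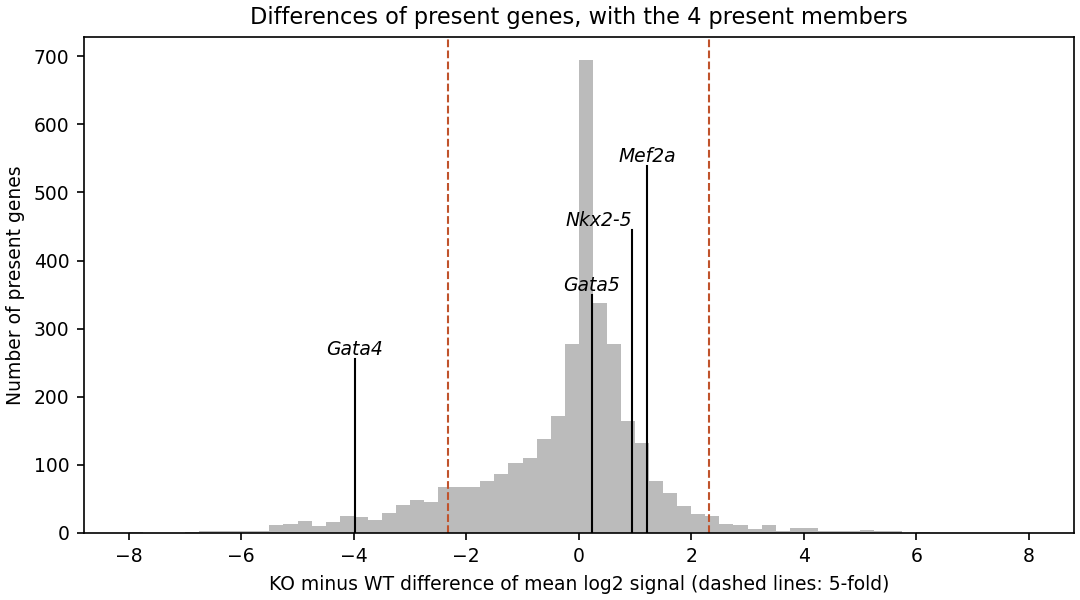
The grey histogram counts the 3384 present genes by their KO minus WT difference of mean log2 signal, and black lines mark the 4 present members. Gata4, at -3.98, lies beyond the 5-fold line, and Gata5, Nkx2-5 and Mef2a lie at 0.23, 0.94 and 1.21 between the lines.

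Taken cell by cell and without the Gata5 probe and the brightest Mef2a probe, 3 to 5 of the factors were above the floor per WT cell and 2 to 5 per KO cell, 16 and 15 in all. WT cell 1 had Nkx2-5, Gata4 and Gata6. WT cell 2 had these and Tbx20, whereas WT cell 3 had Nkx2-5, Gata4, Tbx5 and Mef2a. WT cell 4 had Nkx2-5, Gata4, Gata6, Mef2a and Hand1. KO cell 1 had Nkx2-5, Gata4, Tbx20, Hand1 and Hand2. KO cell 2 had Nkx2-5, Gata6, Tbx20 and Hand1, and KO cell 3 had Nkx2-5 and Gata6 alone. KO cell 4 had Nkx2-5, Gata4, Gata6 and Hand2. No 2 cells had the same set of factors above the floor, and the sets depend on the floor. Gata4 in KO cell 3 and Hand2 in WT cell 4, for example, were well above background but under it. KO cells 2 and 3 also had the smallest share of probes well above background, 17.2% each, and the part of this share in the sets was not tested.

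Family relatives of the factors were largely unseen. Of 14 such genes 10 were detected in no cell, and over all named genes 12200 of 24336 were. Among those 10 were Gata1, Gata2 and Gata3, the blood and neural GATA factors, and Tbx1, Tbx2 and Tbx3. Mef2b was detected in all 8 cells but lay at or near the floor, with its highest signal, 74.0 units, in KO cell 1.

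Of 16 partners and cofactors of the network, 6 were present, 2 of them were lower in KO by 5-fold and 0 were higher. Over all present genes the shares were 10.8% lower and 2.69% higher. Over the 7 measured in at least 4 of 8 cells the median difference was -0.38, with 5 lower and 2 higher. Over all named genes so detected, 2522 were lower and 2341 higher. With so few genes, these counts are not read as a result about the partners. Cited2, a CBP/p300-binding coactivator, measured 3560, 565.7, 2115 and 3450 units in WT cells 1 to 4 and 50, 50, 50 and 3145 units in KO cells 1 to 4. KO cell 4 lay within the WT range and the other 3 KO cells were below it, and the log2 difference was -3.80, or -4.39 with WT cell 2 left out and -5.29 with KO cell 4 left out. KO cell 4 was thus the one KO cell inside the WT range for Gata4 and for Cited2. Cited2 was likewise picked by the study from these arrays. Its brightest probe was well above background in 3 KO cells, so the values of 50 include detected signals under the floor. Another Cited2 probe, also present, measured 248.9 units in KO cell 1, and its difference was -2.85. Smarca4, the ATPase Brg1 of the BAF chromatin remodelling complex, measured 39634, 5390, 3624 and 3003 units in WT and 50, 2459, 1559 and 6948 units in KO cells 1 to 4. Its difference was -2.69, and it fell short of 5-fold at -1.22 without KO cell 1, the cell at the floor, and at -1.85 without WT cell 1, and was -3.59 without KO cell 4.

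Meis1, a TALE homeodomain cofactor, was not called because it was detected in 3 of 4 WT cells only. It was at the floor in WT cell 1 and measured 5448, 3526 and 647.4 units in WT cells 2 to 4. All 4 KO cells were at the floor, and by these floored values Meis1 was 17.8-fold higher in WT. This fold is not a lower bound, because WT cell 1 was raised to the floor too. It was 46.3-fold when WT cell 1 was left out, 9.7-fold when WT cell 2 was and 11.2-fold when WT cell 3 was. Tcf3, the E protein that pairs with Hand factors, measured 607.8, 1573, 1273 and 543.3 units in WT and 1473, 50, 122.3 and 704.5 units in KO cells 1 to 4. KO cells 2 and 3 were low and KO cells 1 and 4 were within the WT range, with a difference of -1.68.

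Known target genes of the factors were mostly detected in both genotypes. Of 15, 10 were present and 0 of these differed by 5-fold in either direction, against 10.8% lower and 2.69% higher over all present genes. Over the 12 measured in at least 4 of 8 cells the median difference was 0.38, with 4 lower and 8 higher. These counts too are of few genes and are not read as a result about the targets. Nppa, the natriuretic peptide gene bound by Nkx2-5, Gata4 and Tbx5, measured 259160.3, 27590.1, 48146 and 13179 units in WT cells 1 to 4 and 73446 to 92607 units in KO cells. The KO cells lay inside the WT range, and Nppa spread less in KO, with an SD of 0.16 against 1.83. The targets did not go one way in this. The SD of Smyd1 was 0.77 in KO against 1.22 in WT, and that of Tnni3 was 2.45 against 0.30. Smyd1, a muscle methyltransferase, measured 877.9, 304.6, 273.6 and 112.2 units in WT and 1454, 433.7, 923.2 and 1207 units in KO cells 1 to 4. KO cells 1, 3 and 4 were above every WT cell and KO cell 2 was not, with a difference of 1.60.

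Ankrd1, a cardiac ankyrin repeat protein, and the natriuretic peptide gene Nppb were not present in either genotype. Ankrd1 measured 50, 723.8, 3448 and 50 units in WT cells 1 to 4 and 50, 6306, 10412 and 8331 units in KO cells 1 to 4. KO cells 2 to 4 were above every WT cell, KO cell 1 was at the floor, and the difference was 3.02. It was under 5-fold, at 2.19, when WT cell 1 or WT cell 4 was left out, and at 2.30 when KO cell 3 was, and the largest value over single cells left out was 4.86, with KO cell 1 left out. Nppb measured 2250.0 units in WT cell 1 and 464.7, 1369 and 2074 units in KO cells 1, 2 and 4, with the other 4 cells at the floor and a difference of 1.97.

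**Figure D5:**
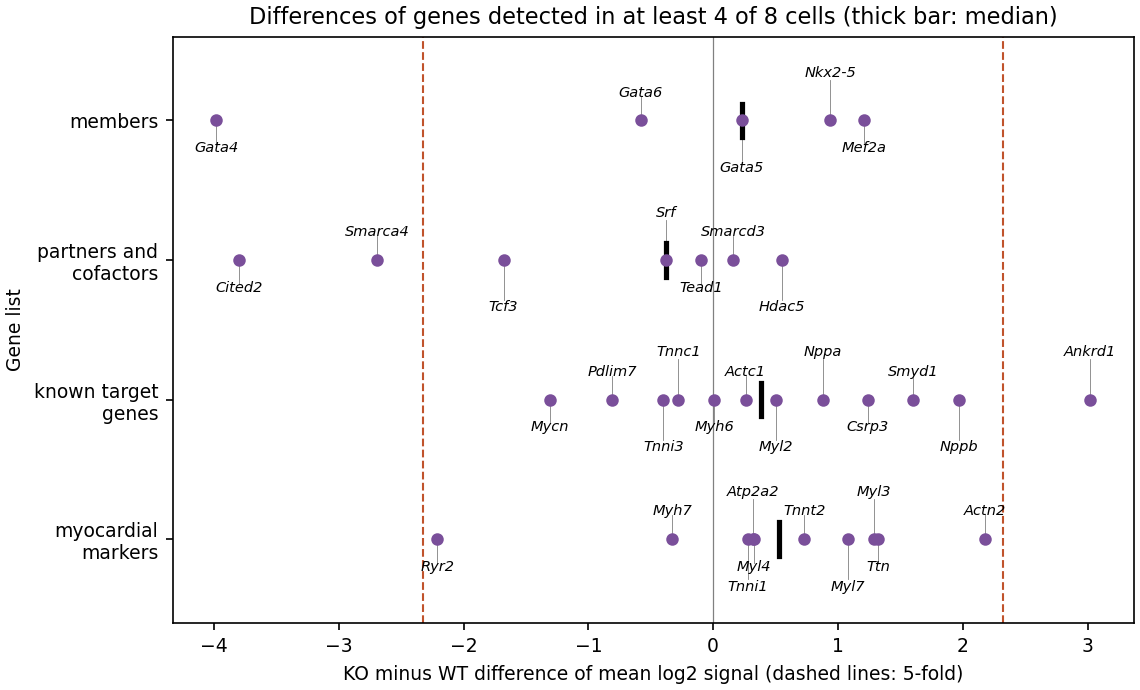
Points give the KO minus WT difference of mean log2 signal of genes detected in at least 4 of 8 cells, by list, with the median of each list as a thick bar. Gata4, Cited2 and Smarca4 lie beyond the 5-fold line on the lower side and Ankrd1 on the higher side, and the medians are 0.23, -0.38, 0.38 and 0.53 from top to bottom.

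The genes whose signal was most like that of a factor over the 8 cells were found among 4858 genes by Pearson's r, given as a description of 8 points that share arrays and scaling. Bcs1l (r = 0.951) and Smo (0.944) were closest to Nkx2-5. Eri3 (0.962) and Cdc16 (0.937) were closest to Gata4. Pgp (0.964) and Tas2r113 (0.934) were closest to Gata6. The longest run of bases held by the probes of these pairs was 5 to 7. For the Gata5 probe the closest genes were Zfp872 (0.961) and Pdcd5 (0.915), with runs of 7 and 8 bases. For the brightest Mef2a probe they were Fryl (0.948) and Usf2 (0.943), whose probes held 19 and 13 bases in common with it.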

How the data were processed

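Single-cell cDNA was amplified, transcribed in vitro, labelled with Cy3 and hybridised to 1-colour Agilent arrays, 1 cell per array. The deposited values used are the processed signal intensity per spot and the flag for spots well above background, both made by the authors with Agilent Feature Extraction 12.0.2.2, which subtracts background. Here control spots and 146 to 220 outlier spots per array were left out, and 0 spots were saturated. Each array's log2 intensity was centred on the 50th percentile, which the study's methods name, but here over 5304 probes well above background on all arrays (shifts of -0.76 to 0.69), and then a floor of 50 was set. The study set its floor of 50 before scaling and also centred each gene on its median, which was not done here. A gene is represented by its brightest probe over the 8 cells, and 32469 probes carried a symbol. "Well above background" is also called detected. Where a probe was detected in no cell of 1 genotype, the fold compares the brighter genotype with the floor or, where higher, the dimmer signal. Cells of the brighter genotype under the floor were set to it too, so such folds are not lower bounds. No test between genotypes was made. Calculations used Python 3.11.15, numpy 2.4.6, pandas 2.3.3 and limma 3.58.1. Scaling, floor and the fold rule were run on simulated data, modelled on bright probes well above background in all 4 WT cells. The simulation did not cover detection, the presence rule or the choice of the brightest probe. The number of arrays limits precision.

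Members and gene lists were chosen with earlier results of these data known. Named were all 10 members with every probe, the 3 genes of each of 3 lists (family relatives, partners, targets) with the largest difference among those detected in at least 4 of 8 cells, every list gene at 5-fold, and the 2 genes most like each such member. Gata1, Gata2, Gata3, Tbx1, Tbx2, Tbx3, Nppa, Tnni3 and the sharing probes' genes were named after their values were seen. Alternatives were no floor, other scalings, background correction, detection rules, fold sizes, averaged probes, medians of cells, outlier spots kept and each cell left out. Sequence of the Gata6 probe is not reported here.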

Additional observations from a re-analysis of the deposited data

Results flagged for a closer look

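Under Dixon's criterion for an outlier, 3 of 16 groups of 4 cells held a cell far from the other 3, and 4 groups had no range. These were Tbx5 in WT cell 3 (564.5 units), Tbx20 in WT cell 2 (1940.6 units) and Hand1 in WT cell 4 (1623.8 units). In each case the other 3 WT cells were tied at the floor of 50 units, so the criterion was met by construction and says only that the gene was above the floor in 1 of 4 cells. The rate of about 1 in 20 that chance gives for this criterion does not hold for tied values.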

How the results depend on the processing

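Gata4 kept its direction and stayed over 5-fold in every alternative run in which it could be counted, with a difference of -5.35 to -3.25. Requiring detection in all 8 cells removed it, so the lower members were 0. Without a presence filter 1 member was higher in KO (Hand2), and at 2-fold 1 was (Mef2a). Leaving out single cells kept the counts at 1 lower and 0 higher. Over single cells left out, the members' median was lowest at -0.40 (WT cell 3) and highest at 0.67 (KO cell 1). It was 0.94 over members detected in all 8 cells, -0.58 without the Gata5 and brightest Mef2a probes, 0.04 with the 75th percentile, -0.12 with scaling over all probes and 0.55 with quantile normalization. Scaling moved the median of probes detected in all cells from 0.00 to 0.32, against 0.15 as reported. Of 169 single-member differences 165 moved by less than the SD between cells and 15 turned sign. Mef2a was -0.16 as the mean of its probes. With the flag for positive and significant spots, Gata6 was detected in 7 cells in place of 6, Tbx5 in 3 in place of 1, Tbx20 in 5 in place of 3, Mef2c in 2 in place of 0 and Hand2 in 5 in place of 3. Above the floor, Gata4 was seen in 6 cells in place of 7 and Hand2 in 2 in place of 3.

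All lower probes numbered 514 (6.88% of 7474 present). They were 874 without a floor, 861 with detection in 3 of 4 cells, 1010 without a presence filter, 90 with detection in all 8 cells, 220 at 10-fold and 1218 at 2-fold. The 131 higher probes (1.75%) became 241, 208, 278, 47, 53 and 854 in the same order. Without single cells the lower probes ranged from 500 to 920 (without WT cell 1) and the higher from 119 to 249 (without KO cell 2). The higher count was 236 without KO cell 3 and 204 without KO cell 4. The causes were not tested. No paired analysis was possible because replicate numbers name cells of unlike genotypes and no test was made. Results for Tbx5, Tbx20, Mef2c, Hand1 and Hand2 are limited because most cells lay at the floor. Single cells could be far above it, such as KO cell 1 with 12365 units for Hand1 and 11643 for Hand2. Whether a gene at the floor lacked transcripts in that cell was not tested.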
